A study of Homo sapiens with 18 samples.

Results

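The genes that add acetyl groups to histones, remove them or read them were examined as a set in A549 cells given sodium propionate (SP). The set holds 31 genes of the 61541 in the count tables, matched by Ensembl identifier to GENCODE v44 symbols. These genes were chosen by function, but with earlier results of these data known. The set comprises 11 zinc-dependent histone deacetylases (HDACs), 7 sirtuins, 9 acetyltransferases, 2 readers of the BET family and 2 corepressor scaffolds. A549 is an established human non-small cell lung carcinoma line, wild type in genotype according to the labels, so every library comes from 1 cell line in culture. SP was applied at 5 mM, for 3 h or 24 h in 1 table and for 3 or 12 days in the other, and untreated cells were taken at 24 h and at 3 days, with 3 RNA-seq libraries in each of the 6 groups. Untreated cells at 24 h serve SP 3 h and SP 24 h, and untreated cells at 3 days serve SP 3 days and SP 12 days. The comparisons within each pair therefore share their control libraries, and at 3 h and 12 days the treatment and the time in culture cannot be told apart. Libraries are named below by group and replicate, such as Control_24H replicate 3.

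Acetyl groups on histone lysines are written by acetyltransferases, which use acetyl-CoA, and are erased by HDACs, which hold a zinc ion, or by sirtuins, which consume NAD. Proteins with bromodomains, such as those of the BET family, bind acetylated lysine and help recruit the transcription machinery, while scaffolds such as NCOR1 and SIN3A bring HDACs to repressed genes. Short-chain fatty acids such as propionate and butyrate are known inhibitors of HDAC enzymes, and propionyl-CoA can be used by some acetyltransferases in place of acetyl-CoA. The values here are RNA levels and do not measure enzyme activity or histone marks.

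Between 14187401 and 43765330 reads per library were assigned to genes (median 20175880), and all 31 genes passed the filter on low counts in both tables. Levels are given as CPM, counts scaled to library size, after TMM scaling, with the 3 libraries of a group in the order of their replicate numbers, and gene positions are those of GENCODE v44 on GRCh38. Differences are log2 fold changes from edgeR's quasi-likelihood test, with p-values adjusted over all genes tested, and genes with an adjusted p below 0.05 count as called. The libraries of 3 h and 24 h varied more than those of 3 and 12 days: the common biological coefficient of variation was 0.199 against 0.0996. In Control_24H a smooth trend over GC content and length accounted for 0.321, 0.231 and 0.21 of the variance of a library's log2 deviations. It accounted for 0.0227, 0.0848 and 0.272 in SP_3H and 0.101, 0.175 and 0.312 in SP_24H, against 0.01 to 0.126 in the table of 3 and 12 days. The 8 genes listed for a lung carcinoma line of epithelial origin moved both ways between control cells at 3 days and SP for 12 days. Group means of KRT8 and KRT18 rose from 4206 and 2146 to 7714 and 3815 CPM. Those of KRT19, CDH1 and EPCAM rose from 289, 158 and 9.83 to 1694, 369 and 53.6 CPM. ALDH1A1, AKR1B10 and NQO1 fell from 8756, 2801 and 1591 to 4549, 1345 and 1379 CPM. Markers of other cells were checked as lists, with group means of 0 to 36.0 CPM over leukocyte genes, 0 to 1.91 over 3 endothelial genes and 0 to 74.4 over 4 fibroblast genes. CD3E was at 0 reads in every group, and PTPRC, COL1A2 and DCN were at 0.181 CPM or less. The highest values were those of CD14 and COL1A1, and at 3 days both were higher on average with SP: CD14 was at 17.0 CPM in control cells and 36.0 CPM with SP, and COL1A1 at 13.3 and 61.9 CPM. The part of these markers in the results was not tested. The study's captions call the early libraries biological replicates, but the labels do not name separate cultures, and p-values measure the spread between these libraries. Since RNA came from bulk cultures, fewer cells of a kind and less RNA per cell cannot be told apart.

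The acetyltransferases were called in 1 direction, lower in SP-treated cells. At 3 days 8 of the 9 were lower than in control cells, where 23.3% of all genes were lower, at 12 days all 9 were lower (23.4% of all genes), and none was higher at any time. The 18 deacetylases were mixed, with 5 rises (27.8%) and 3 falls (16.7%) at 3 days and 4 rises (22.2%) and 5 falls (27.8%) at 12 days, shares near those of all genes (25.2% higher and 23.3% lower at 3 days, 26.4% and 23.4% at 12 days). The class I enzymes HDAC1, HDAC3 and HDAC8 were called at no time. KAT6B, an acetyltransferase of the MYST family, had the largest fall at 3 days (2.53-fold lower), and SIRT4, a mitochondrial sirtuin, the largest rise at 3 h (4.81-fold higher).

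Counts over the whole set were read against all genes tested. At 3 h, 4 of the 31 were higher and 5 lower, where 7.39% of all genes were higher and 4.11% lower. At 24 h, 6 were higher and 6 lower, against 16.8% higher and 12% lower of all genes. That count of 12 fell to 7 without Control_24H replicate 2, to 5 without SP_24H replicate 2 and to 5 without SP_24H replicate 3. Of all genes tested, 23%, 15.8% and 17.9% were called in these fits. The 3-day libraries had 5 rises and 14 falls among the 31, against 25.2% and 23.3% of all genes. The 12-day libraries had 4 rises and 17 falls, against 26.4% and 23.4%. The median log2 fold change of the 31 genes was -0.01, -0.01, -0.14 and -0.30 at the 4 times, beside medians of 0.00, -0.01, -0.02 and 0.00 over all genes. In this fit no gene was called in opposite directions at different times, but with an offset for GC content and length HDAC5 was called higher at 3 h (0.97, adjusted p = 0.0246) and 24 h and lower at 12 days, and SIRT7 higher at 3 h (0.57, adjusted p = 0.00988) and lower at 3 days.

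At the thresholds of the study, an adjusted p under 0.0001 with a fold change of at least 2, few of these genes passed. By edgeR no member was called at 3 h or at 24 h, although 12 and 13 members had an unadjusted p under 0.05, and DESeq2 called SIRT4 and KAT6B at 3 h and HDAC5 and SIRT4 at 24 h. By edgeR 0% and 0.685% of all genes were called at these times, and the shares by DESeq2 are not given here. By edgeR KAT6B was the only member called at 3 days, where 8.44% of all genes were called. Without Control_3D replicate 1, Control_3D replicate 2 or SP_3D replicate 3, 2 members were called at 3 days. The shares of all genes in those fits are not given here. KAT6B and CREBBP were called at 12 days, where 9.11% of all genes were called.

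**Figure D1:**
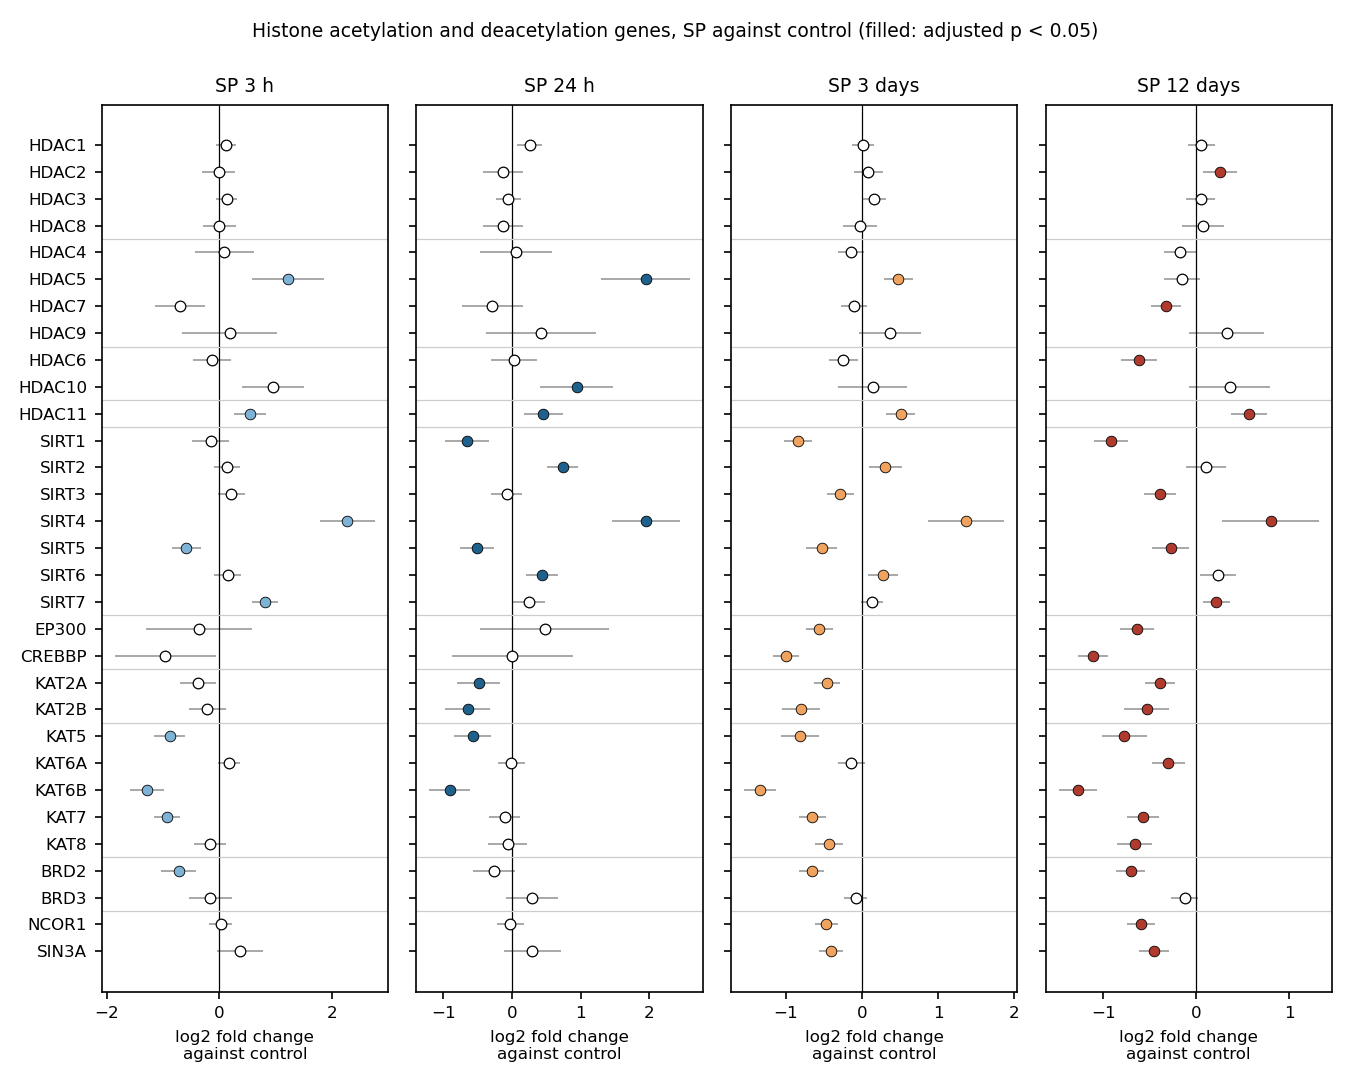
Log2 fold changes of the 31 genes (points, bars 95% confidence intervals) against control at the 4 durations of SP, by class from top to bottom: class I, IIa, IIb and IV HDACs, sirtuins, p300 and CBP, GNAT, MYST, BET readers and corepressors. Filled points passed an adjusted p under 0.05; at 3 and 12 days the acetyltransferases lie left of 0, from -1.34 to -0.14 at 3 days, while the class I HDACs lie between -0.03 and 0.16 at 3 days. The 4 horizontal axes differ in range.

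The upstream sequences of genes that moved in opposite directions are shown because several members fell together while SIRT4 and HDAC11 rose at every time. RefSeq windows (GRCh38.p14) were matched by symbol for 27 of the 31 members. The 250 bases before the RefSeq start are printed from 5′ to 3′ on the gene's strand. For genes with several starts, the one nearest to the GENCODE gene start was used. The 2 starts lay 328 bases apart for KAT6B, whose window falls inside the GENCODE gene, and 582 bases apart for HDAC11. Among members counted below but not printed, they lay 40160 bases apart for HDAC2, 13229 for HDAC7 and 2651 for NCOR1. Capitals mark matches, on either strand, to the GC box GGGCGG, where overlapping copies count separately, to the CCAAT box, to the TATA letters TATAAA, to the ETS core CCGGAA or to the E-box CACGTG. The windows are KAT6B at chr10:74825005-74825254 (plus strand), CREBBP at chr16:3880714-3880963 (minus), EP300 at chr22:41092342-41092591 (plus), SIRT1 at chr10:67884406-67884655 (plus), SIRT4 at chr12:120302071-120302320 (plus) and HDAC11 at chr3:13480056-13480305 (plus). The first 4 belong to genes that fell and the last 2 to genes that rose.
KAT6B: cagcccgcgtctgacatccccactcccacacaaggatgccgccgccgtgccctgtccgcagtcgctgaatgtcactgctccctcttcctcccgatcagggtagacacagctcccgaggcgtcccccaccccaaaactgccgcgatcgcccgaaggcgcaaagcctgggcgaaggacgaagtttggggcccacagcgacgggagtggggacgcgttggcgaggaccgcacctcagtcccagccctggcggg
CREBBP: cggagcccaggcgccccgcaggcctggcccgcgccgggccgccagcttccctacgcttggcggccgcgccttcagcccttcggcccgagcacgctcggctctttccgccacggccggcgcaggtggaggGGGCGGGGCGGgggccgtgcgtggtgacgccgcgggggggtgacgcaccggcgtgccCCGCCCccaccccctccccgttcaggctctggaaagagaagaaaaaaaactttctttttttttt
EP300: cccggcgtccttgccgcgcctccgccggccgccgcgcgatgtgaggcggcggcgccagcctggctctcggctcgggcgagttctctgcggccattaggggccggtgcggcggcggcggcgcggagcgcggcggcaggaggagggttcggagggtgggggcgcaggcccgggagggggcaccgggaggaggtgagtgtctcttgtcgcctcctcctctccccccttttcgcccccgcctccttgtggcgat
SIRT1: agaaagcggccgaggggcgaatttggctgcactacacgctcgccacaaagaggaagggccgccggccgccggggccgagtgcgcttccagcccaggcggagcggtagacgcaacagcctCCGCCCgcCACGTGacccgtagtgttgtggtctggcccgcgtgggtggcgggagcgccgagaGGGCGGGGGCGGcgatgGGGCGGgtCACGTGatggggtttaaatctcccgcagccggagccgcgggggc
SIRT4: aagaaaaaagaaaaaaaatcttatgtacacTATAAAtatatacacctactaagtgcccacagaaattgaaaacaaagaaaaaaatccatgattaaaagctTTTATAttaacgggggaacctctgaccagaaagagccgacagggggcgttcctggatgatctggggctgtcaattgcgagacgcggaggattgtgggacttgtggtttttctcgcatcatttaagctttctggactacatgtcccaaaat
HDAC11: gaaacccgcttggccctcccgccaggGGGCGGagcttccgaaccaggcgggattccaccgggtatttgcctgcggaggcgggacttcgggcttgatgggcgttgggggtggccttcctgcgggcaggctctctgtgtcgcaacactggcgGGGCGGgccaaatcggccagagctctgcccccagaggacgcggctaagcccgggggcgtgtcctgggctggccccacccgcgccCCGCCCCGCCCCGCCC

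GC-rich windows were found on both sides. SIRT4 had the lowest GC content of the 27 members, 39.6%, and held 2 matches to TATAAA, whereas HDAC11 held 5 GC boxes at a GC content of 73.6%. Among the genes that fell, SIRT1 held 4 GC boxes and 2 copies of CACGTG, CREBBP held 3 GC boxes, and KAT6B and EP300 held none of the 5 motifs. GGGCGG was present in 15 of 27 members (55.6%) and in 42.5% of 27305 genes with a window. CCGGAA was present in 33.3% of members and 14.8% of all, CACGTG in 11.1% and 6.5%, CCAAT in 18.5% and 33.0%, and TATAAA in 7.4% and 11.2%. Members had a median GC content of 71.6% in this window, against 58.0% over all genes. With KAT6B and EP300 holding none, no motif could be common to the printed genes that fell, so the comparison between the 2 directions decides nothing. The printed genes were picked by the direction of their changes, and KAT5 and SIRT5, lower at every time, were not printed. These matches are letters in a window, not binding sites.

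EP300 and CREBBP encode p300 and CBP, paralogous acetyltransferases that acetylate histones at enhancers and promoters and serve as coactivators. EP300 (ENSG00000100393, chr22:41092592-41180077, plus strand) was at 97.4, 97.5 and 107 CPM in control cells at 3 days. It was at 69.3, 60.2 and 75.3 CPM after SP for 3 days and at 64.05, 69.3 and 60.8 CPM after 12 days. All 6 SP libraries were below the 3 control libraries. The log2 fold change was -0.56 (SE 0.09) at 3 days (adjusted p = 0.000116) and -0.64 (SE 0.09) at 12 days (adjusted p = 3.19e-05).

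CREBBP (ENSG00000005339, chr16:3725054-3880713, minus strand) fell further. Its level was 117, 120.2 and 129 CPM in control cells, 60.1, 57.9 and 65.5 CPM after 3 days of SP and 52.3, 60.9 and 56.3 CPM after 12 days. The treated libraries were far below the control libraries with no overlap. Log2 fold changes were -0.998 (SE 0.08) (adjusted p = 1.30e-07) and -1.11 (SE 0.08) (adjusted p = 3.46e-08).

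The earlier libraries gave no call for either gene. EP300 was at 30.5, 61.1 and 113 CPM in control cells at 24 h, 69.4, 66.5 and 24.2 CPM after 3 h of SP and 96.5, 102 and 87.4 CPM after 24 h. CREBBP was at 45.3, 80.2 and 149.9 CPM without SP, at 60.9, 59.1 and 21.8 CPM after 3 h and at 90.2, 100.1 and 86.5 CPM after 24 h. For both genes Control_24H replicate 1 was low and replicate 3 high, SP_3H replicate 3 was far below the other SP_3H libraries, and the SP_24H libraries were close together inside the control range. At 24 h the log2 fold change was 0.48 (SE 0.48) for EP300 and 0.01 (SE 0.45) for CREBBP (adjusted p = 0.474 and 0.993), and at 3 h it was -0.36 (SE 0.48) and -0.96 (SE 0.46) (adjusted p = 0.711 and 0.233). The 95% intervals were wide, -0.46 to 1.41 for EP300 and -0.88 to 0.89 for CREBBP at 24 h, and -1.30 to 0.58 and -1.86 to -0.06 at 3 h. The 10% of genes lowest in GC content also deviated from the mean of the table. Their median log2 deviation was 0.51, 0.355 and -0.47 in the Control_24H libraries and 0.102, -0.145 and 0.41 in the SP_3H libraries. In the SP_24H libraries, which were close together for EP300 and CREBBP, it was 0.0655, -0.352 and -0.46. The part of this trend in the spread of EP300 and CREBBP was not tested. Without Control_24H replicate 3 and SP_3H replicate 3, a choice made after seeing the data, EP300 was higher at 24 h, by a log2 of 1.05 (adjusted p = 0.0121).

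KAT6B (ENSG00000156650, chr10:74824927-75032624, plus strand) encodes a MYST acetyltransferase that acts on histone H3 and was lower at all 4 times. Control cells at 3 days gave 37.1, 40.2 and 38.8 CPM, SP at 3 days 15.7, 13.9 and 16.3 CPM and SP at 12 days 16.4, 17.7 and 13.9 CPM. Control cells at 24 h gave 27.4, 29.4 and 26.9 CPM, SP at 3 h 13.7, 10.4 and 10.6 CPM and SP at 24 h 17.1, 14.6 and 12.9 CPM. Every SP library lay below every control library of its table. The log2 fold changes were -1.28 (SE 0.15) at 3 h, -0.91 (SE 0.15) at 24 h, -1.34 (SE 0.11) at 3 days and -1.27 (SE 0.11) at 12 days, with adjusted p of 0.00143, 0.00227, 7.11e-08 and 9.25e-08. The call was kept at all 4 times under every alternative run at this threshold, and also at an adjusted p under 0.01. Its paralogue KAT6A was at a log2 fold change of -0.14 at 3 days (adjusted p = 0.213) and was lower at 12 days, at -0.30 (SE 0.09) (adjusted p = 0.011), with no call at 3 h or 24 h.

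KAT7 (ENSG00000136504, chr17:49788624-49835026, plus strand), the MYST enzyme also called HBO1 that acetylates histone H3 and H4 with BRPF and JADE partners, was low at 3 h but not at 24 h. Levels were 60.8, 61.2 and 75.6 CPM in control cells at 24 h and 36.8, 36.1 and 31.01 CPM after 3 h of SP. After 24 h of SP they were 60.9, 62.4 and 60.1 CPM, which overlapped the control. The log2 fold change was -0.93 (SE 0.12) at 3 h (adjusted p = 0.00187) and -0.11 (SE 0.12) at 24 h (adjusted p = 0.509), and SP 24 h exceeded SP 3 h by 0.82 (SE 0.12) (adjusted p = 0.00211). At 3 days the control libraries were at 69.9, 71.6 and 76.95 CPM and the SP libraries at 43.96, 45.2 and 49.7 CPM, and at 12 days the SP libraries were at 48.9, 53.3 and 44.4 CPM. The groups did not overlap, with log2 fold changes of -0.65 (SE 0.09) and -0.58 (SE 0.09) (adjusted p = 2.03e-05 and 6.32e-05).

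KAT5 (ENSG00000172977, chr11:65711996-65719604, plus strand), which encodes TIP60, the catalytic subunit of the NuA4 complex that acetylates histones H4 and H2A, was lower throughout. It was at 24.1, 19.5 and 23.2 CPM in control cells at 24 h, 13.3, 10.2 and 12.9 CPM at 3 h of SP and 15.3, 14.5 and 15.3 CPM at 24 h. At 3 days it was at 19.7, 19.4 and 23.9 CPM without SP and 13.4, 10.7 and 11.7 CPM with SP, and at 12 days of SP at 12.1, 13.7 and 11.1 CPM. No SP library reached the lowest control of its table. The 4 log2 fold changes were -0.88 (SE 0.14), -0.57 (SE 0.14), -0.82 (SE 0.13) and -0.77 (SE 0.12) in order of time (adjusted p = 0.0046, 0.0141, 6.51e-05 and 9.38e-05). The call at 24 h was lost without SP_24H replicate 2 (adjusted p = 0.0604). Of the exon bases of KAT5, 38.6% overlap RNASEH2C, and the strand setting of the counting is not stated, so reads of the 2 genes may not be separated.

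KAT8 (ENSG00000103510, chr16:31114489-31131393, plus strand), also called MOF and known for acetylating histone H4 at lysine 16, was called lower at 3 and 12 days. Control cells at 3 days were at 44.3, 38.8 and 43.6 CPM, SP at 3 days at 29.6, 30.7 and 33.6 CPM and SP at 12 days at 24.7, 26.3 and 28.9 CPM. Groups were apart, with log2 fold changes of -0.43 (SE 0.09) (adjusted p = 0.00133) and -0.66 (SE 0.09) (adjusted p = 2.86e-05). At 24 h the control libraries were at 32.2, 32.9 and 43.8 CPM, beside 34.00, 32.7 and 30.3 CPM at 3 h of SP and 31.00, 35.03 and 38.5 CPM at 24 h, with overlap in both cases (log2 fold changes -0.17 and -0.06, not called). With the offset for GC content and length the 24-h value was -0.34 and passed (adjusted p = 0.0256). The difference between the 3-day and 24-h effects was -0.33 (SE 0.18) and did not pass (adjusted p = 0.319).

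The GNAT enzymes KAT2A (GCN5) and KAT2B (PCAF), alternative catalytic subunits of the SAGA and ATAC coactivator complexes, were both called lower from 24 h. KAT2B (ENSG00000114166, chr3:20040446-20154404, plus strand) was at 30.02, 29.1 and 21.7 CPM in control cells and 19.9, 15.9 and 16.01 CPM after 24 h of SP, with 21.3, 21.3 and 26.8 CPM at 3 h. Only the SP 24 h libraries were all below the control libraries of that table. It was at 26.7, 31.6 and 23.8 CPM in control cells at 3 days, 16.1, 16.7 and 14.2 CPM with SP and 18.1, 21.8 and 16.7 CPM at 12 days. Its log2 fold change was -0.64 (SE 0.17) at 24 h, -0.80 (SE 0.13) at 3 days and -0.53 (SE 0.12) at 12 days (adjusted p = 0.0191, 8.59e-05 and 0.00217), and -0.22 at 3 h (adjusted p = 0.485). The 24 h call was lost without Control_24H replicate 2, SP_24H replicate 2 or SP_24H replicate 3 (adjusted p between 0.058 and 0.0822). KAT2A changed by -0.49 (SE 0.16) at 24 h, -0.46 (SE 0.08) at 3 days and -0.39 (SE 0.08) at 12 days (adjusted p = 0.0484, 0.000318 and 0.00115). With the replicate block, which pairs libraries of the same number, the fall of KAT2A at 24 h was -0.49 and did not pass (adjusted p = 0.0776), and it was lost without any of 5 of the 6 libraries compared. With the offset for GC content and length it was larger, at -0.86 (adjusted p = 0.000287), or -0.86 with offset and block together (adjusted p = 0.000225), and the offset also called a fall at 3 h (-0.52, adjusted p = 0.0115).

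**Figure D2:**
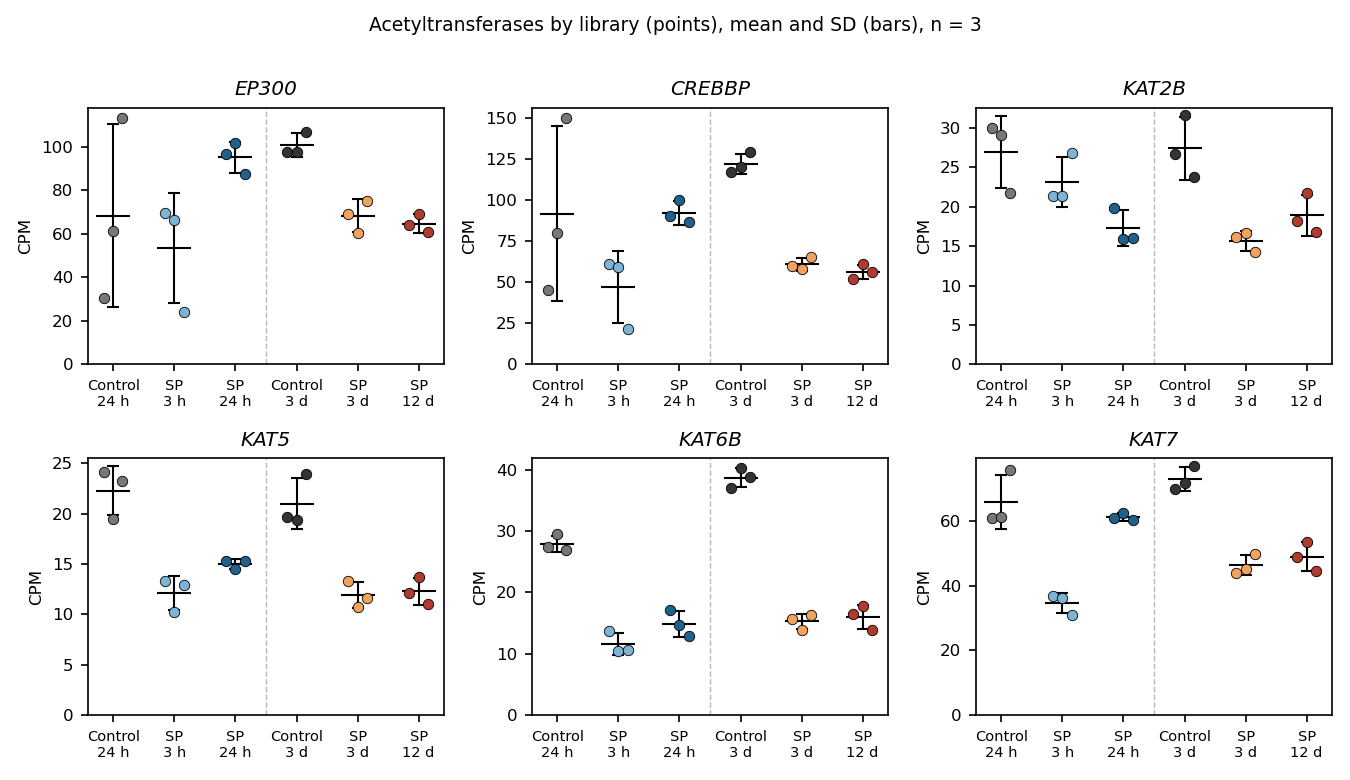
Levels of 6 acetyltransferases in CPM (vertical axes, from 0) in each of the 18 libraries (points), with the mean and SD of 3 libraries per group (horizontal and vertical bars). The dashed line separates the 2 tables; KAT6B and KAT5 are lower in every SP group, whereas EP300 and CREBBP range over 30.5 to 113 CPM and 45.3 to 150 CPM in the control libraries at 24 h.

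Of the BET readers, BRD2 was called lower at 3 h and from 3 days, and BRD3 had no call in this fit. BRD2 (ENSG00000204256, chr6:32968594-32981505, plus strand), which binds acetylated histone H4, was at 183, 175 and 188 CPM in control cells at 3 days, 112, 109 and 124 CPM with SP and 112, 119 and 104 CPM at 12 days. In the other table it was at 125, 143 and 174 CPM in control cells, 96.9, 100.4 and 71.4 CPM at 3 h and 131, 119.8 and 118 CPM at 24 h of SP. Only the SP 24 h libraries overlapped their controls. Its log2 fold changes were -0.72 (SE 0.16), -0.26 (SE 0.16), -0.66 (SE 0.08) and -0.71 (SE 0.08) in order of time (adjusted p = 0.018, 0.233, 6.49e-06 and 3.00e-06). BRD3 lay between -0.16 at 3 h and 0.29 at 24 h, and between -0.13 and -0.08 later. Under the offset for GC content and length BRD2 was also lower at 24 h (-0.52, adjusted p = 0.00228), and BRD3 at 3 days (-0.28, adjusted p = 0.00399) and 12 days (-0.24, adjusted p = 0.0107), whereas without Control_24H replicate 3 and SP_3H replicate 3 BRD3 was higher at 24 h (0.45, adjusted p = 0.0361). Of the exon bases of BRD3, 18.6% are shared with BRD3OS.

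Both corepressor scaffolds were lower from 3 days. NCOR1 (ENSG00000141027, chr17:16029065-16218185, minus strand), the scaffold that activates HDAC3, was at 297, 313 and 318 CPM in control cells, 223, 212 and 235 CPM at 3 days of SP and 207, 216 and 192 CPM at 12 days. The groups were well apart, with log2 fold changes of -0.47 (SE 0.08) (adjusted p = 0.000126) and -0.59 (SE 0.08) (adjusted p = 1.23e-05). At 24 h it was at 255, 284 and 299 CPM without SP, 294, 289 and 266 CPM at 3 h and 266, 299 and 259.9 CPM at 24 h of SP, all overlapping. The annotation lists 4 pseudogenes named for NCOR1, and how reads mapping to several places were counted is not stated. SIN3A, scaffold of the SIN3 complex with HDAC1 and HDAC2, was lower, with log2 fold changes of -0.41 (SE 0.08) at 3 days and -0.45 (SE 0.08) at 12 days (adjusted p = 0.000759 and 0.000283), and was not called at 3 h (0.36) or 24 h (0.30).

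The class I deacetylases, of which HDAC1, HDAC2 and HDAC3 are nuclear enzymes held in the SIN3, NuRD, CoREST and NCoR complexes, showed small differences. HDAC1 (ENSG00000116478, chr1:32292083-32333635, plus strand) was at 135, 121 and 133 CPM in control cells at 24 h, 142, 141 and 141 CPM at 3 h of SP and 159, 144 and 161 CPM at 24 h. Both SP groups lay above the controls, but only by a log2 of 0.12 (SE 0.09) and 0.26 (SE 0.09) (adjusted p = 0.455 and 0.0589). In the fit with the replicate block the rise at 24 h just passed, at 0.26 (adjusted p = 0.0498). At 3 days it was at 117, 111 and 114 CPM without SP and 114, 116 and 117 CPM with SP, and at 12 days at 125, 119.6 and 111 CPM, with overlap and 95% intervals of the log2 fold change of -0.13 to 0.16 and -0.09 to 0.20. The annotation names 2 HDAC1 pseudogenes.

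HDAC2 (ENSG00000196591, chr6:113933028-114011308, minus strand), the close paralogue of HDAC1, was at 86.4, 93.5 and 86.6 CPM in control cells, 99.1, 95.4 and 87.5 CPM at 3 days and 114, 114 and 89.9 CPM at 12 days of SP. The third library of 12 days lay within the control range, and the rise there of 0.25 (SE 0.10) (adjusted p = 0.0369) was lost when any of the 6 libraries but SP_12D replicate 3 was left out and by DESeq2 (adjusted p = 0.0606). Earlier levels were 148, 116 and 101 CPM without SP, 112, 113 and 137 CPM at 3 h and 122, 103 and 108 CPM at 24 h, which overlapped. HDAC3 (ENSG00000171720, chr5:141620876-141636849, minus strand), the catalytic subunit of the NCoR complex, was at 47.5, 43.4 and 47.7 CPM in the 3-day control, at 50.7, 51.9 and 51.7 CPM with SP and at 46.7, 50.7 and 45.6 CPM after 12 days. In the 24-h control it was at 52.3, 54.1 and 58.7 CPM, against 56.2, 61.00 and 63.5 CPM after 3 h and 53.5, 52.4 and 53.4 CPM after 24 h of SP. The 3-day SP libraries were above the controls without reaching a call (0.16 (SE 0.08), adjusted p = 0.126), and the other SP groups overlapped theirs. HDAC8 stayed between -0.13 and 0.08 on the log2 scale over the 4 comparisons. Over the 4 class I genes, edgeR called 0 at 3 h, 24 h and 3 days, with 0, 1 and 0 at an unadjusted p under 0.05. By edgeR 7.39% of all genes were higher and 4.11% lower at 3 h, 16.8% and 12% at 24 h, and 25.2% and 23.3% at 3 days. DESeq2 called 0 of the 4 at each time, and 6.82%, 15%, 20.2% and 20.9% of all genes, with no filter on low counts. With only 4 genes, a count of 0 says little at 3 h and 24 h. The 95% intervals at 3 days reached at most 0.31 upward and -0.25 downward, so a fall as large as that of the acetyltransferases' median, -0.65, lay outside them.

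Class IIa deacetylases shuttle between nucleus and cytoplasm and act largely as scaffolds, and among them HDAC5 rose early and was no longer higher at 12 days. HDAC5 (ENSG00000108840, chr17:44076746-44123702, minus strand) was at 8.95, 19.97 and 13.6 CPM in control cells at 24 h, 26.7, 44.6 and 26.98 CPM at 3 h of SP and 42.7, 69.6 and 50.9 CPM at 24 h. All SP libraries were above the highest control library. By 3 days HDAC5 was at 68.2, 63.1 and 79.6 CPM without SP and 93.3, 97.6 and 103 CPM with SP, and at 12 days at 59.8, 59.8 and 69.9 CPM. The 3-day SP libraries were above the controls, and at 12 days 2 of the 3 SP libraries lay below the lowest control. Log2 fold changes were 1.21 (SE 0.32), 1.94 (SE 0.33), 0.48 (SE 0.10) and -0.15 (SE 0.10) in order of time (adjusted p = 0.0425, 0.00279, 0.000694 and 0.205). SP 12 days was lower than SP 3 days, with a log2 difference of -0.63 (SE 0.10) (adjusted p = 0.000982). The 3-day effect was smaller than the 24-h effect, with a difference of -1.43 (SE 0.35) (adjusted p = 0.0226), a call lost without Control_3D replicate 3, SP_3D replicate 1, SP_3D replicate 2 or SP_24H replicate 2 (-1.47 to -1.24, adjusted p between 0.0515 and 0.0605).

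Several limits touch HDAC5. The 3 h call was lost when any of the 6 libraries compared but Control_24H replicate 2 was left out (adjusted p between 0.0547 and 0.155), and the 3-day rise shrank to 0.09 with an offset for GC content and length (adjusted p = 0.247). With that offset the 24-h rise was 1.39 (adjusted p = 0.00197) and HDAC5 was lower at 12 days, at -0.40 (adjusted p = 0.000156). Without SP_12D replicate 3 the 12-day value was -0.25 and also passed (adjusted p = 0.0166). Its exons have a GC content of 61.2%, and the 10% of genes highest in GC content deviated by a median log2 of 0.17, 0.24 and 0.29 in the SP_24H libraries and by -0.41, -0.22 and 0.04 in Control_24H. Of the exon bases 24.0% overlap G6PC3. Its control level also differed between the tables, at a mean of 14.2 CPM at 24 h and 70.3 CPM at 3 days, which were counted and normalised separately.

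The other class IIa genes had fewer calls, but 2 of them gained falls with the offset for GC content and length. HDAC7 was lower at 12 days (-0.32 (SE 0.08), adjusted p = 0.00465) and lay at -0.70, -0.29 and -0.10 at the earlier times without a call in this fit. Its fall at 3 h was called by DESeq2 (-0.73, adjusted p = 0.0376) and without Control_24H replicate 1 (-0.91, adjusted p = 0.0303). HDAC4 lay between -0.17 and 0.09 and HDAC9 between 0.19 and 0.42, neither of them called. With the offset HDAC7 was lower at all 4 times, at -0.96, -0.89, -0.55 and -0.62 (adjusted p = 0.000215, 0.00016, 5.80e-06 and 1.76e-06), and HDAC4 at 3 days (-0.37, adjusted p = 0.00103) and 12 days (-0.28, adjusted p = 0.00603). The 12-day fall of HDAC4 also passed without SP_12D replicate 3 (-0.26, adjusted p = 0.0138). HDAC9 was the member with the lowest level per kb in both controls.

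Of the class IIb enzymes, HDAC6 deacetylates tubulin in the cytoplasm and HDAC10 acts on polyamines. HDAC6 (ENSG00000094631, chrX:48801377-48824982, plus strand) was at 72.01, 67.05 and 84.8 CPM in control cells at 3 days, 57.6, 63.99 and 67.5 CPM with SP and 47.5, 45.6 and 52.8 CPM at 12 days. The 12-day libraries were the lowest and overlapped neither other group, while the 3-day libraries overlapped the control by SP_3D replicate 3. The log2 fold change was -0.24 (SE 0.10) at 3 days (adjusted p = 0.0542) and -0.62 (SE 0.10) at 12 days (adjusted p = 9.85e-05), and the step from 3 to 12 days was -0.37 (SE 0.10) (adjusted p = 0.0322). That step was lost without SP_3D replicate 2 or 3 or SP_12D replicate 1 or 2 (adjusted p between 0.0849 and 0.125), and the 3-day fall was called without Control_3D replicate 2, at -0.32 (adjusted p = 0.0225), or SP_3D replicate 3, at -0.30 (adjusted p = 0.0442). Levels at the early times were 36.1, 44.9 and 51.4 CPM without SP, 42.04, 46.1 and 33.2 CPM at 3 h and 39.5, 50.96 and 44.2 CPM at 24 h, all overlapping. With the offset for GC content and length HDAC6 was lower at 24 h (-0.34, adjusted p = 0.0207) and at 3 days (-0.48, adjusted p = 7.82e-05).

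HDAC10 (ENSG00000100429, chr22:50245183-50251405, minus strand) was scarce. It was at 0.371, 0.423 and 0.526 CPM in control cells at 24 h, 0.847, 1.01 and 0.734 CPM at 3 h and 0.769, 0.985 and 0.811 CPM at 24 h of SP. The SP libraries lay above the controls in each case, with log2 fold changes of 0.95 (SE 0.28), which did not pass (adjusted p = 0.0581), and 0.94 (SE 0.27) (adjusted p = 0.0282). In the later table it was at 2.92, 2.94 and 3.13 CPM without SP and 3.78, 2.44 and 3.71 CPM with SP, and at 12 days at 3.54, 2.89 and 5.01 CPM, with overlap. Of its exon bases 73.6% are shared with neighbouring genes including MAPK12, and with the offset for GC content and length the 24-h value was 0.25 (adjusted p = 0.525). The 24-h call was also lost by DESeq2 (adjusted p = 0.0946) and without Control_24H replicate 1 or 2 or SP_24H replicate 2 or 3.

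HDAC11 (ENSG00000163517), the single class IV enzyme, known for removing fatty acyl groups, was higher at all 4 times. Its log2 fold changes were 0.53 (SE 0.14), 0.45 (SE 0.14), 0.51 (SE 0.10) and 0.57 (SE 0.10) (adjusted p = 0.0429, 0.0418, 0.000493 and 0.000169). At 3 days it was at 20.9, 19.05 and 20.9 CPM without SP and 28.7, 28.1 and 29.9 CPM with SP, and at 12 days at 27.9, 28.7 and 33.6 CPM. Neither SP group overlapped the control. Under the offset for GC content and length the 24-h value was -0.02, the 3-day rise 0.18 (adjusted p = 0.0618) and the 12-day rise 0.35 (adjusted p = 0.00141), so that only the last was called. The 3 h call was lost without Control_24H replicate 1 or 2 or SP_3H replicate 1 or 2, and the 24-h call without any of the 6 libraries compared but Control_24H replicate 3 (adjusted p between 0.0546 and 0.161).

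**Figure D3:**
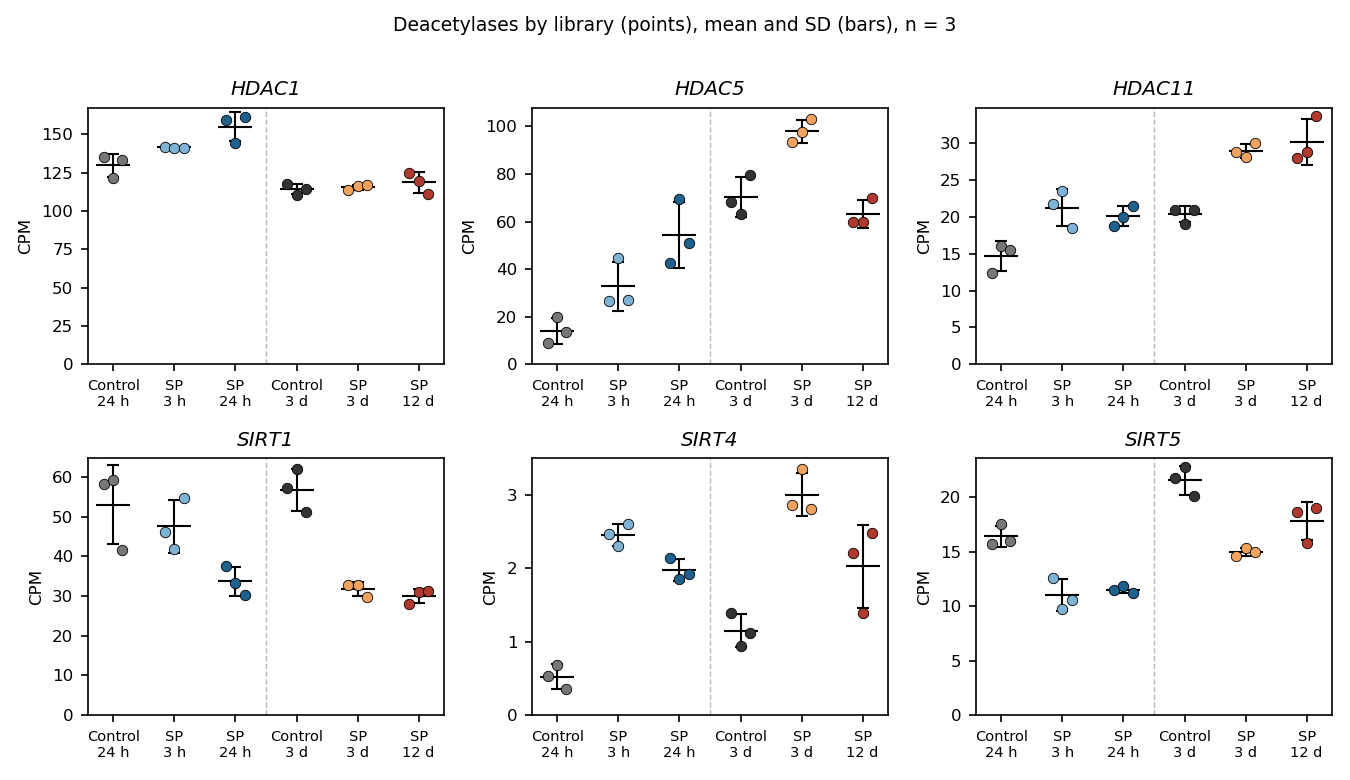
Levels of 6 deacetylases in CPM (vertical axes, from 0) in each library (points), with the mean and SD of 3 libraries per group (bars). HDAC5 rises to 42.7 to 69.7 CPM at 24 h of SP and is at 59.8 to 69.9 CPM at 12 days, against 63.1 to 79.6 CPM in its control, SIRT1 is lower from 24 h, and SIRT4 is higher in every SP group.

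Sirtuins were called in both directions, with 3 higher and 3 lower of 7 at 3 days, where 25.2% of all genes were higher and 23.3% lower. At 12 days 2 were higher and 3 lower, against 26.4% and 23.4% of all genes. SIRT1 (ENSG00000096717, chr10:67884656-67918390, plus strand), the nuclear deacetylase of histones and of transcription factors, was at 57.1, 61.9 and 51.2 CPM in control cells at 3 days, 32.8, 32.7 and 29.6 CPM with SP and 27.9, 30.9 and 31.2 CPM at 12 days. At the early times it was at 58.2, 59.2 and 41.7 CPM without SP, 45.99, 41.8 and 54.7 CPM at 3 h and 37.4, 33.3 and 30.2 CPM at 24 h of SP. From 24 h every SP library was below every control library. Log2 fold changes were -0.16 (SE 0.16) at 3 h, -0.66 (SE 0.16) at 24 h, -0.84 (SE 0.09) at 3 days and -0.92 (SE 0.09) at 12 days (adjusted p = 0.625, 0.0162, 2.48e-06 and 8.61e-07). The 24-h fall was -0.30 with the offset for GC content and length (adjusted p = 0.0809) and was lost without Control_24H replicate 2, SP_24H replicate 2 or SP_24H replicate 3 (adjusted p between 0.0543 and 0.0684), while the 3-day fall was -0.76 with the offset (adjusted p = 2.08e-06).

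SIRT4 (ENSG00000089163, chr12:120302316-120313249, plus strand), a mitochondrial sirtuin that acts on enzymes of fuel metabolism, was among the scarcest members and rose most. It was at 0.529, 0.687 and 0.351 CPM in control cells at 24 h, 2.47, 2.30 and 2.61 CPM at 3 h and 2.14, 1.86 and 1.93 CPM at 24 h of SP. It was at 1.39, 0.94 and 1.12 CPM in control cells at 3 days, 2.87, 3.35 and 2.81 CPM with SP and 2.21, 1.40 and 2.48 CPM at 12 days. No SP library overlapped the controls, although SP_12D replicate 2 lay just above Control_3D replicate 1. The log2 fold changes were 2.27 (SE 0.25), 1.95 (SE 0.25), 1.37 (SE 0.26) and 0.80 (SE 0.26) in order of time (adjusted p = 0.00103, 0.000607, 0.000403 and 0.0196). The first 3 calls held under all alternatives at this threshold, and that at 12 days was lost by DESeq2 (adjusted p = 0.0533) and without Control_3D replicate 2 or 3 or SP_12D replicate 1 or 3 (adjusted p between 0.056 and 0.0838).

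SIRT5 (ENSG00000124523, chr6:13574227-13615158, plus strand), the mitochondrial enzyme that removes succinyl, malonyl and glutaryl groups, was lower at all 4 times. It was at 15.7, 17.5 and 16.02 CPM in control cells at 24 h, 12.6, 9.76 and 10.6 CPM at 3 h and 11.5, 11.8 and 11.2 CPM at 24 h of SP. It was at 21.8, 22.8 and 20.2 CPM at 3 days without SP, 14.6, 15.4 and 14.96 CPM with SP and 18.7, 15.8 and 19.01 CPM at 12 days. Groups did not overlap in either table. Its log2 fold changes were -0.58 (SE 0.13), -0.51 (SE 0.13), -0.53 (SE 0.10) and -0.28 (SE 0.10) (adjusted p = 0.019, 0.0161, 0.00062 and 0.0353). The call at 12 days was lost by DESeq2 (adjusted p = 0.0802) and without Control_3D replicate 1 or 2 or SP_12D replicate 2, and the calls at 3 h and 24 h without single libraries (SP_3H replicate 2 or 3 and Control_24H replicate 2 at 3 h, SP_24H replicate 2 or 3 at 24 h). SIRT3, the main mitochondrial deacetylase, was lower, with log2 fold changes of -0.29 (SE 0.09) at 3 days and -0.39 (SE 0.09) at 12 days (adjusted p = 0.0148 and 0.00188) and called at 24 h only with the offset for GC content and length (-0.42, adjusted p = 0.00661). Its 3-day call was lost without Control_3D replicate 1 or SP_3D replicate 2 (adjusted p = 0.07 and 0.0593).

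SIRT7 and SIRT2 differed between the 2 early times. SIRT7 (ENSG00000187531, chr17:81911939-81921323, minus strand), the nucleolar sirtuin that deacetylates histone H3 at lysine 18, was at 44.9, 45.7 and 53.1 CPM in control cells at 24 h, 87.8, 83.2 and 80.8 CPM at 3 h and 53.2, 52.1 and 65.2 CPM at 24 h of SP. The SP 3 h libraries stood far above both other groups. Its rise of 0.81 (SE 0.12) at 3 h (adjusted p = 0.00328) was followed by 0.25 (SE 0.12) at 24 h (adjusted p = 0.148), and SP 24 h was below SP 3 h, with a log2 difference of -0.56 (SE 0.12) (adjusted p = 0.0112). Later SIRT7 was at 59.2, 55.5 and 61.5 CPM without SP and 64.6, 63.6 and 65.02 CPM with SP, and at 12 days at 69.9, 67.2 and 67.5 CPM, a rise of 0.21 (SE 0.08) at 12 days (adjusted p = 0.0263). With the offset for GC content and length the later values turned to -0.25 at 3 days (adjusted p = 0.00605) and -0.04 at 12 days. The 12-day call was lost without Control_3D replicate 1 or 2 or SP_12D replicate 1 or 2, and the step from 3 h to 24 h without SP_24H replicate 2 (adjusted p = 0.0544).

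SIRT2 (ENSG00000068903, chr19:38878555-38899862, minus strand), mainly cytoplasmic and a deacetylase of tubulin, went the other way. It was at 44.1, 41.8 and 44.1 CPM in control cells at 24 h, 42.7, 49.5 and 50.6 CPM at 3 h and 64.3, 79.8 and 72.7 CPM at 24 h of SP. Only the 24-h SP libraries were apart from the controls, by 0.74 (SE 0.11) (adjusted p = 0.00156), and they exceeded SP 3 h by 0.60 (SE 0.11) (adjusted p = 0.00678), a difference that was 0.35 with the offset for GC content and length and did not pass (adjusted p = 0.112). At 3 days it was at 50.6, 49.6 and 58.3 CPM without SP and 60.3, 65.9 and 70.1 CPM with SP, and at 12 days at 60.95, 62.7 and 46.7 CPM. The 3-day rise was 0.31 (SE 0.11) (adjusted p = 0.0302) and lost without any of Control_3D replicate 1 or 2 and SP_3D replicate 2 or 3, and the 12-day libraries overlapped the control. With the offset for GC content and length the 24-h rise was 0.29 (adjusted p = 0.154) and the 3-day rise 0.02 (adjusted p = 0.876). SIRT6, a chromatin-bound sirtuin, was higher by 0.44 (SE 0.12) at 24 h and 0.28 (SE 0.10) at 3 days (adjusted p = 0.0232 and 0.0313), and with the offset it was at -0.20 and -0.23, in the opposite direction. The calls of SIRT6 were lost without any of 4 of the 6 libraries compared at each time.

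The offset for GC content and length shifted the split of the whole set toward falls. Rises and falls among the members numbered 3 and 7 at 3 h with it, 2 and 10 at 24 h, 1 and 19 at 3 days, and 3 and 20 at 12 days. Of all genes tested, 9.54% were then higher and 8.47% lower at 3 h, 16.5% and 19.8% at 24 h, 22.8% and 31.3% at 3 days, and 24% and 30.8% at 12 days. The share of higher calls among all called genes moved as well, from 64.3% to 53% at 3 h, from 58.3% to 45.4% at 24 h, from 52% to 42.1% at 3 days and from 53% to 43.8% at 12 days. The falls of the acetyltransferases were kept: with the offset the same 8 were lower at 3 days and all 9 at 12 days. Members whose rises were lost or reversed were HDAC11 at 3 h, HDAC10, HDAC11, SIRT2 and SIRT6 at 24 h, HDAC5, HDAC11, SIRT2 and SIRT6 at 3 days and SIRT7 at 12 days, and SIRT1 lost its fall at 24 h. Falls gained were those of HDAC7 and KAT2A at 3 h, HDAC6, HDAC7, SIRT3, KAT8 and BRD2 at 24 h, HDAC4, HDAC6, HDAC7, SIRT7 and BRD3 at 3 days, and HDAC4, HDAC5 and BRD3 at 12 days. Whether the offset removes a library effect or part of the response was not tested.

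**Figure D4:**
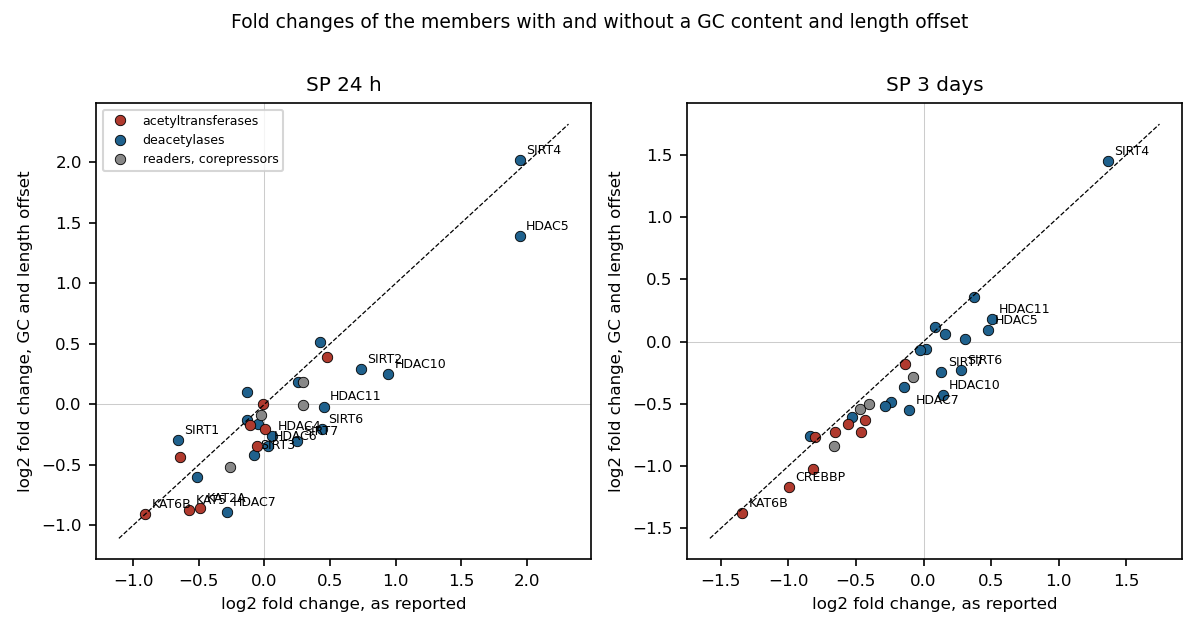
Log2 fold change of each of the 31 genes as reported (horizontal axis) and with an offset for GC content and exon length (vertical axis) at 24 h (left) and 3 days (right) of SP, coloured by class; the dashed line marks equal values. At 3 days the 9 acetyltransferases lie below 0 on both axes, while HDAC5 and HDAC11 move from 0.48 and 0.51 to 0.09 and 0.18.

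Only a few members differed between treatment times. Between SP 3 h and SP 24 h, 2 members were higher (KAT7, SIRT2) and 1 lower (SIRT7) at 24 h, where 11.7% of all genes were higher and 8.4% lower. From 3 to 12 days of SP no member became higher and 2 became lower (HDAC5, HDAC6), where 4.46% of all genes were higher and 3.65% lower. Without SP_12D replicate 3, 7 members were called between SP 12 and 3 days, 2 higher and 5 lower. Of all genes tested, 13.6% were higher and 14.5% lower without that library. HDAC5 was the only member whose 3-day effect was called different from its 24-h effect, where 3.13% of all genes had a higher and 3.15% a lower effect at 3 days. For EP300 and CREBBP this difference was -0.98 (SE 0.54) and -0.95 (SE 0.51) (adjusted p = 0.323 and 0.31), and without Control_24H replicate 3 it was -1.64 and -1.58 (adjusted p = 0.0351 and 0.0305). In that fit 8 members were called, among them KAT7, KAT8, BRD2, NCOR1 and SIN3A, where 10.6% of all genes were called. With the offset for GC content and length 4 were called (HDAC5, KAT7, NCOR1 and SIN3A), and limma voom with quality weights called 10. Of all genes, 9.91% were called with the offset and 17.1% by limma voom.

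The partners of these enzymes were described from 9 lists of 129 further genes, all of which were tested. Rises and falls among them numbered 7 and 19 at 3 h, 10 and 24 at 24 h, 20 and 52 at 3 days, and 17 and 57 at 12 days. As shares of the 129 the falls were 14.7%, 18.6%, 40.3% and 44.2% in order of time, against 4.11%, 12%, 23.3% and 23.4% of all genes, and the rises 5.43%, 7.75%, 15.5% and 13.2%, against 7.39%, 16.8%, 25.2% and 26.4%. Among the 18 subunits of SAGA and ATAC, the complexes of KAT2A and KAT2B, none was higher and 5, 5, 12 and 14 were lower in order of time. Among the 30 partners of the MYST enzymes, 9 and 11 were lower at 3 h and 24 h with none higher, and 17 were lower at 3 days and 17 at 12 days, with 2 and 1 higher. The median log2 fold change at 3 days was -0.40 for SAGA and ATAC and -0.32 for the MYST partners. Of the 14 other acetyltransferases, 7 were lower at 3 days and 7 at 12 days.

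The lists tied to deacetylases were small, and are read beside 25.2% higher and 23.3% lower of all genes at 3 days and 26.4% and 23.4% at 12 days. The 15 SIN3 subunits had 2 rises and 1 fall at 3 days, then 3 rises and 2 falls at 12 days, around a median of -0.07 at 3 days. The 9 NuRD subunits had 1 higher and 4 lower at both times, the 11 CoREST and MiDAC subunits 5 higher and 3 lower at 3 days, and the 5 NCoR and SMRT subunits 2 higher and 0 lower. The 21 acetyl-lysine readers had 5 higher and 8 lower at 3 days. Among the 7 genes that supply acyl-CoA, ACSS2, which makes acetyl-CoA from acetate, was higher by 0.71 at 24 h, 0.69 at 3 days and 0.95 at 12 days. CRAT, the carnitine acetyltransferase, was higher by 0.77, 0.83 and 0.48 at these times (edgeR adjusted p = 0.00599, 0.00133 and 0.0262), and SLC25A1, the mitochondrial citrate carrier, by 0.61 at 24 h and 0.40 at 3 days. ACSS2, CRAT and SLC25A1 were picked after their values were seen. The other genes of this list are not described by name here, so these rises do not stand for the list.

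The largest changes among the partners recurred across times. RCOR2, a CoREST subunit, rose from a mean of 1.27 CPM in control cells at 24 h to 5.76 CPM at 3 h and 12.0 CPM at 24 h of SP (log2 fold changes 2.12 and 3.19), and from 3.35 CPM at 3 days to 11.0 and 8.86 CPM at 3 and 12 days of SP (1.73 and 1.42). DPF1, a reader in the neuronal BAF complex, was higher by 1.67 at 3 h, 1.33 at 3 days and 1.22 at 12 days. CORO2A, listed with the NCoR complex, was higher by 1.25 at 3 h and 2.03 at 24 h. ZMYND8, a reader with a bromodomain, was higher by 1.86 at 24 h, 1.22 at 3 days and 1.05 at 12 days, from 56.6 ± 1.81 to 132 ± 6.75 CPM at 3 days (mean ± SD, n = 3).

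Large falls were called for partners of KAT7, KAT6B and KAT5 and for CHD3. BRPF3, a scaffold of the KAT7 and KAT6 complexes, was lower, at -1.62 at 3 h, -1.30 at 24 h and -1.61 at 3 days on the log2 scale, from 24.8 ± 2.01 to 8.09 ± 0.608 CPM at 3 days (mean ± SD, n = 3). JADE2, another scaffold of KAT7, was lower, at -1.60 at 3 h and -1.59 at 3 days, and JADE1 was at -1.33 at 12 days. In the complex of KAT5, EPC2 was lower, at -1.81 at 3 h, EPC1 at -1.29 at 24 h, and ING3 at -1.35 at 24 h and -1.24 at 12 days. CHD3, a remodelling ATPase of NuRD, fell from 528 ± 32.3 to 190 ± 10.6 CPM at 3 days (mean ± SD, n = 3), with log2 fold changes of -1.47 at 3 days and -1.55 at 12 days (edgeR adjusted p = 1.76e-09 and 9.29e-10).

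**Figure D5:**
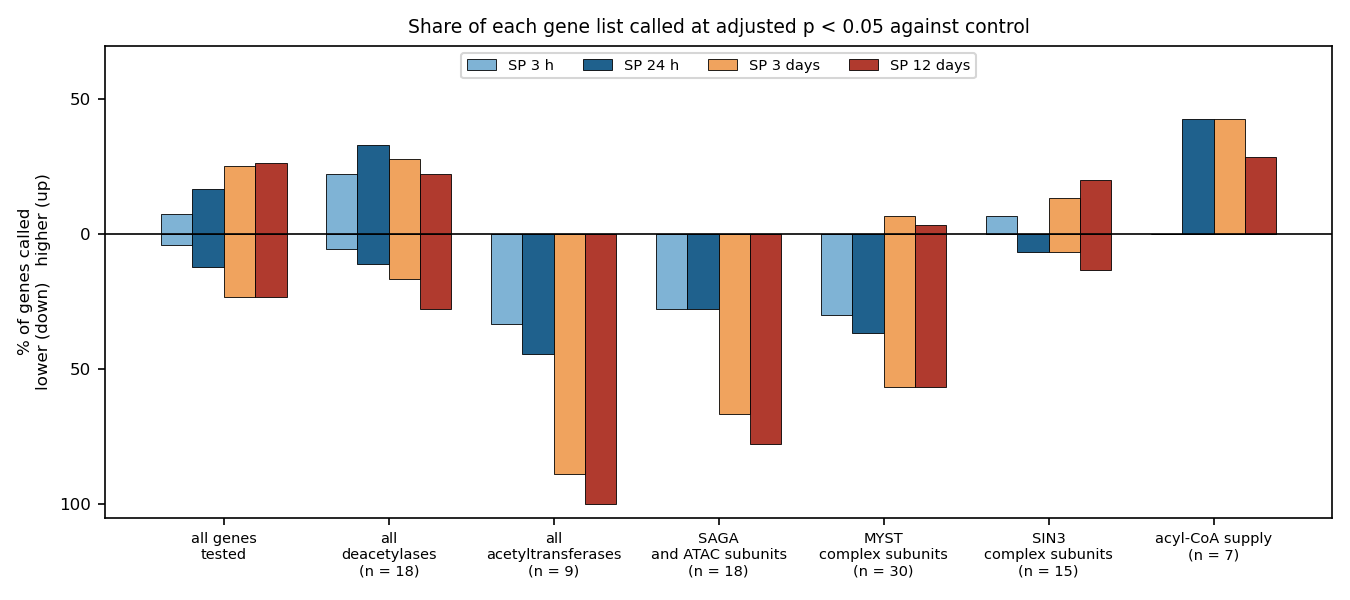
Share of each gene list (percent, vertical axis) called higher (upward bars) or lower (downward bars) than control at an adjusted p under 0.05 at the 4 times of SP, beside all genes tested. Acetyltransferases reach 88.9% lower at 3 days and 100% at 12 days with no bar upward, against 23.3% and 23.4% of all genes, and the 7 acyl-CoA supply genes have upward bars only.

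Levels per kb of exon placed HDAC1 first in control cells, at 28.8 ± 0.84 CPM per kb at 3 days and 32.7 ± 1.9 at 24 h (mean ± SD, n = 3). KAT2A followed at 24.9 ± 1.8 and 23.3 ± 4.1 CPM per kb, then BRD2 (20.2 at 3 days) and NCOR1 (19.8), whose libraries overlapped. Below them SIRT1 (12.4 CPM per kb at 3 days) overlapped BRD3 (11.6), and each neighbour from HDAC3 (10.0) down to KAT8 (7.38) overlapped the next. At 3 days EP300 (8.61 CPM per kb) and CREBBP (7.89) were in the middle of the order, KAT6B was at 1.19, and the lowest were SIRT4 (0.941), HDAC10 (0.606), HDAC8 (0.578) and HDAC9 (0.201). Exon lengths are unions over all annotated transcripts, so levels of genes with many transcripts are understated on this scale.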

How the data were processed

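Paired-end RNA-seq of A549 cells used NEBNext Ultra libraries according to the labels and the study's methods, which name GRCh38 as the genome. The authors deposited 2 tables of raw counts per gene with 9 libraries each, 1 with the groups of 3 and 12 days and 1 with those of 3 h and 24 h. The submitters' processing notes name FastQC, STAR 2.7.9a, featureCounts, R 4.2.1 and DESeq2 1.36.0. The strand setting and the treatment of reads mapping to several places are not given in the sources used here. Of 61541 gene identifiers, 61369 have an entry in GENCODE v44 (GRCh38), which gave symbols, positions, exon lengths and GC content.

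The 31 members and the lists of partners were chosen with earlier results of these data known. Depth was 14187401 to 43765330 counts per library. In each table genes with low counts were removed by filterByExpr (minimum count 10), leaving 17775 and 17377 genes, and edgeR 4.0.16 (R 4.3.3, limma 3.58.1) was fitted with TMM scaling, group as the only term and the robust quasi-likelihood test. The adjustment was that of Benjamini and Hochberg, across every gene tested. The effects at 3 days and 24 h were compared in a joint fit of 18 libraries over 18785 genes. Values per library are given for 20 members, namely EP300, CREBBP, HDAC1, HDAC2, HDAC3 and every member called with a change of at least 1.5-fold against control, and for HDAC11, which was added after its values were seen. Partners named are up to 3 of the largest called changes in each direction against control, among genes averaging 100 counts or more in a group, and the acyl-CoA supply genes were added after their values were seen. The fits were tested on simulated counts.

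Replicate numbers were checked for pairing through the correlation of same-numbered libraries' deviations from their group means. Control_24H and SP_24H correlated at 0.499, 0.17 and 0.504, each above 0.1, and their differently numbered libraries at -0.546 to 0.175. The values reported at 24 h are from the fit with group as the only term. A fit with the replicate block is given where it changes a call at 24 h. Alternatives were DESeq2 1.42.0, RLE size factors, no filter, an offset for GC content and length, the replicate block, the 2 groups alone, a threshold of 0.01 and each library left out.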

Additional observations from a re-analysis of the deposited data

Results flagged for a closer look

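A few tests between treatment times passed for 5 members. SP 24 h differed from SP 3 h for KAT7, by a log2 difference of 0.82 (edgeR adjusted p = 0.00211), for SIRT7, by -0.56 (adjusted p = 0.0112), and for SIRT2, by 0.60 (adjusted p = 0.00678), which with the offset for GC content and length was 0.35 (adjusted p = 0.112). SP 12 days differed from SP 3 days for HDAC6, by -0.37 (adjusted p = 0.0322), and for HDAC5, by -0.63 (adjusted p = 0.000982). The effect of SP on HDAC5 differed between 3 days and 24 h by -1.43 (adjusted p = 0.0226), in a test across 2 tables with their own controls.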

How the results depend on the processing

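Over all results and alternatives, 2958 values kept their direction and side of the threshold, 142 lost a call, 81 gained one and 12 turned direction. At 3 h the 9 members called became 5 in a fit of the 2 groups alone and 5 at a threshold of 0.01. Of all genes tested, 6.02% and 4.59% were called in these alternatives. At 24 h the 12 became 4 at 0.01 and 5 to 11 with a library left out. They became 15 without Control_24H replicate 3 and SP_3H replicate 3, an alternative chosen after seeing the data. The shares of all genes called at 24 h were 13.9%, 15.8% to 37.1%, and 43.1%. At the study's thresholds, 3 h gave 2 without a filter, 1 with the GC content and length offset and 2 by DESeq2. For 24 h these thresholds gave 1 without a filter, 1 with the offset and replicate block together and 2 by DESeq2. At 3 days they gave 2 without a filter, 3 with the offset, 3 with the offset and block, 2 in the 2 groups alone and 1 to 2 with a library left out. The shares of all genes that passed the study's thresholds in these alternatives are not given here, so these counts cannot be set against them. Between SP 24 h and SP 3 h the 3 calls became 5 without a filter, 6 with the offset, 8 with the offset and block and 5 in the 2 groups alone. Of all genes tested, 9.23%, 26.1%, 30% and 25.5% were called in these fits. Between SP 12 days and SP 3 days the 2 calls became 1 with the offset and block, 1 at 0.01 and 1 to 7 with a library left out. The shares of all genes were 8.56%, 3.05% and 3.04% to 28.1%. The single difference between the 3-day and 24-h effects became 4 with the offset, 10 by limma voom with quality weights and 0 to 8 with a library left out. Here 9.91%, 17.1% and 3.15% to 10.6% of all genes were called. The cause of these shifts was not tested.

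The 12 turned values came from the offset, without and with the replicate block. They were HDAC6 at 24 h (-0.34 and -0.35), HDAC11 at 24 h (-0.018 and -0.017), SIRT6 at 24 h (-0.20 and -0.21) and 3 days (-0.23 and -0.23), and SIRT7 at 3 days (-0.25 and -0.25) and 12 days (-0.037 and -0.037). The replicate block alone left 8 and 12 members called at 3 h and 24 h and 19 and 21 at 3 and 12 days, and 4, 2 and 1 in the comparisons between times. With this block 11%, 29%, 49.6% and 51% of all genes were called against control, and 20.2%, 9.98% and 6.37% between times. Outside 24 h the numbers were not shown to pair the samples: same-numbered libraries correlated at -0.0863, -0.0278 and -0.592 for SP 3 h. Depth limits the scarcest members most, with 30 reads of HDAC10 and 33 of SIRT4 over the 3 Control_24H libraries.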
